A study of Mus musculus with 18 samples.

Results

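The genes described here encode 10 chains of the receptors for interleukin-6 (IL-6), IL-10, IL-12 and interferons: Il6ra, Il6st, Il12rb1, Il12rb2, Il27ra, Il10ra, Il10rb, Ifngr1, Ifngr2 and Ifnar1. They were chosen by symbol from the 55536 genes with an Ensembl identifier in the count table. RNA sequencing covered 18 libraries of mouse CD8+ T cells taken from spleen and lymph nodes. All carried the label OT-I, a transgenic T cell receptor that recognises the ovalbumin peptide SIINFEKL, although receptor segment use in the naive libraries, given with the depths, went against that label. A pair of libraries was labelled Tra2b knockout and 8 were labelled control, from cells given a scrambled sequence. Both of these groups were harvested 4 days after stimulation with SIINFEKL and antibodies against OX40 and 4-1BB, costimulatory receptors of T cells. The other 8 were naive cells at day 0. The knocked-out gene, Tra2b, encodes an RNA-binding splicing regulator. The labels name neither the way in which it was disrupted nor the animals behind each library. The spread within a group, and with it every p-value, may therefore be technical.

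Cytokine receptors of this kind have no kinase of their own. Ligand binding brings chains together, Janus kinases (JAK) bound to their tails become active, and STAT transcription factors are phosphorylated and move to the nucleus. Chains are shared between cytokines, so the level of one chain can limit the response to several ligands. Il6ra encodes the IL-6-binding chain and Il6st the shared signalling chain gp130, which also serves IL-11, LIF and, together with the product of Il27ra, IL-27. Il12rb1 and Il12rb2 encode the IL-12 receptor, which signals mainly through STAT4 in T cells, and the Il12rb1 chain also serves IL-23. Il10ra binds IL-10 and pairs with the widely used Il10rb chain, with STAT3 as the main transcription factor. Ifngr1 and Ifngr2 encode the ligand-binding chain and the second signalling chain of the interferon gamma receptor. Ifnar1 pairs with Ifnar2 in the receptor for type I interferons.

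The promoters of the members whose level differed between knockout and control libraries are shown because these genes moved within stimulated cells, and that of Il12rb2, chosen after its values were seen, because it rose most in control against naive. They come from RefSeq (GRCm38.p6), run from 250 bases before to 50 bases after the annotated start, and are written 5′ to 3′ on the gene's strand. The RefSeq promoter table matched 6 of the 10 members, and Il27ra, which also differed, was not among them. Capitals mark the STAT-type palindrome TTCNNNGAA, which reads the same on both strands.
Il6st, chr13:112463820-112464119, plus strand: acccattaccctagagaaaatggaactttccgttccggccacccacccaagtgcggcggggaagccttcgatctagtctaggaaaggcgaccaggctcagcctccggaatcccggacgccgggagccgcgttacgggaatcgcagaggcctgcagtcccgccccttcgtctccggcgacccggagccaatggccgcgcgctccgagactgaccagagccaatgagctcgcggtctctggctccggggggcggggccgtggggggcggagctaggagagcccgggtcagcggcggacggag
Ifngr1, chr10:19591699-19591998, plus strand: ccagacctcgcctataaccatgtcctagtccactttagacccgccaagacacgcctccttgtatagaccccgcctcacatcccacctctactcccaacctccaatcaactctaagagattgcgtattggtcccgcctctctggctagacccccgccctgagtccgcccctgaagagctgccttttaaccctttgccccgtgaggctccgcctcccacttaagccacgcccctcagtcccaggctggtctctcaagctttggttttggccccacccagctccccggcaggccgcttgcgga
Ifnar1, chr16:91484965-91485264, plus strand: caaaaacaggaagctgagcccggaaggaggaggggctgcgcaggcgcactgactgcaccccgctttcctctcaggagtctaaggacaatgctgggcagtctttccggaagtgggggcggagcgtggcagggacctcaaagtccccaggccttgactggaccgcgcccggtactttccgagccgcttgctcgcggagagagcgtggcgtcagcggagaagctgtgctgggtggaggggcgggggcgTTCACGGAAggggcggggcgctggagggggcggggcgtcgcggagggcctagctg
Il12rb2, chr6:67376139-67376438, minus strand: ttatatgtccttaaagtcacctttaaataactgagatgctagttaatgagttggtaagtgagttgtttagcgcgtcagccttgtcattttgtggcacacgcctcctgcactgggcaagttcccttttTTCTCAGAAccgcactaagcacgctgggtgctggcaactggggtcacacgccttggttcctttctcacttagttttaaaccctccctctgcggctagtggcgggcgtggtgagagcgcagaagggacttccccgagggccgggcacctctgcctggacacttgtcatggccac
The palindrome was present once in Ifnar1, as TTCACGGAA with its first base at -5 from the start site, and once in Il12rb2, as TTCTCAGAA with its first base at -123. It was not found in the windows of Il6st, Ifngr1, Il6ra or Ifngr2. Of all 32851 promoters of the same length in the table, 2726 (8.30%) held it. A match describes the letters of the window and is no evidence of binding.

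Total counts were 79197461 and 93495846 for knockout, 73735681 to 93972513 for control and 68249844 to 86932452 for naive libraries. Levels are given as CPM, counts relative to the library's total, scaled by TMM over all 18 libraries. Tra2b stood at 361 and 370 CPM in the knockout libraries, within the 338 to 526 CPM of the controls, so its gene-level count does not separate these groups, and knockout is used here as the label gives it. Transcripts with the Tra2b poison exon, which carries stop codons (chromosome 16, 22258986 to 22259261, 276 bases), held 1.02 to 1.04% of Tra2b counts in the knockout libraries, against 3.73 to 10.7% in controls, and 9.06 to 14.5% in naive libraries. The variable segment Trbv12-1 took 99.5 to 99.7% of all Trbv counts in the knockout libraries and 99.7 to 99.9% in controls, against 5.96 to 12.5% in naive libraries. The OT-I receptor uses a beta chain of this segment, so the naive values go against the OT-I label, and naive and stimulated libraries differed in clonal make-up besides stimulation. All 8 naive libraries shared this, so no comparison with them can be made without it. T cell identity genes summed to 4510 to 5227 CPM in the knockout libraries, 4600 to 5549 CPM in controls and 7465 to 8974 CPM in naive libraries. In these bulk samples a lower share of cells of one type and less RNA per cell cannot be told apart.

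All 10 members passed the low-count filter in each comparison, and the smallest value of any member was 36 estimated counts, for Ifngr2 in a knockout library. All 10 members differed between control and naive libraries (edgeR's quasi-likelihood test, adjusted by Benjamini-Hochberg, called under 0.05), against a background of 71.5% of the 17078 genes tested. Of the 10, 8 were lower (background 39%) and 2 were higher (background 32.5%) in controls. The median log2 fold change of the members was -1.10 in control against naive, beside -0.08 over all genes tested. Knockout against control gave fewer calls. Among the members 4 of 10 were called, against a background of 14.9% of 18651 genes, with 3 higher (background 7.62%) and 1 lower (background 7.24%). Without knockout library 2, 1 member and 651 genes were called, and without knockout library 1, 3 members and 2405 genes. Each of these fits, and each value given here without 1 knockout library, has a single knockout library, which is assumed to vary like the other group. The median of the members was 0.28 in the fit with both, beside -0.01 over all genes. The plot of levels by library shows that Ifngr2 and Il6ra lay lowest in stimulated cells, at a small part of their naive level.

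**Figure D1:**
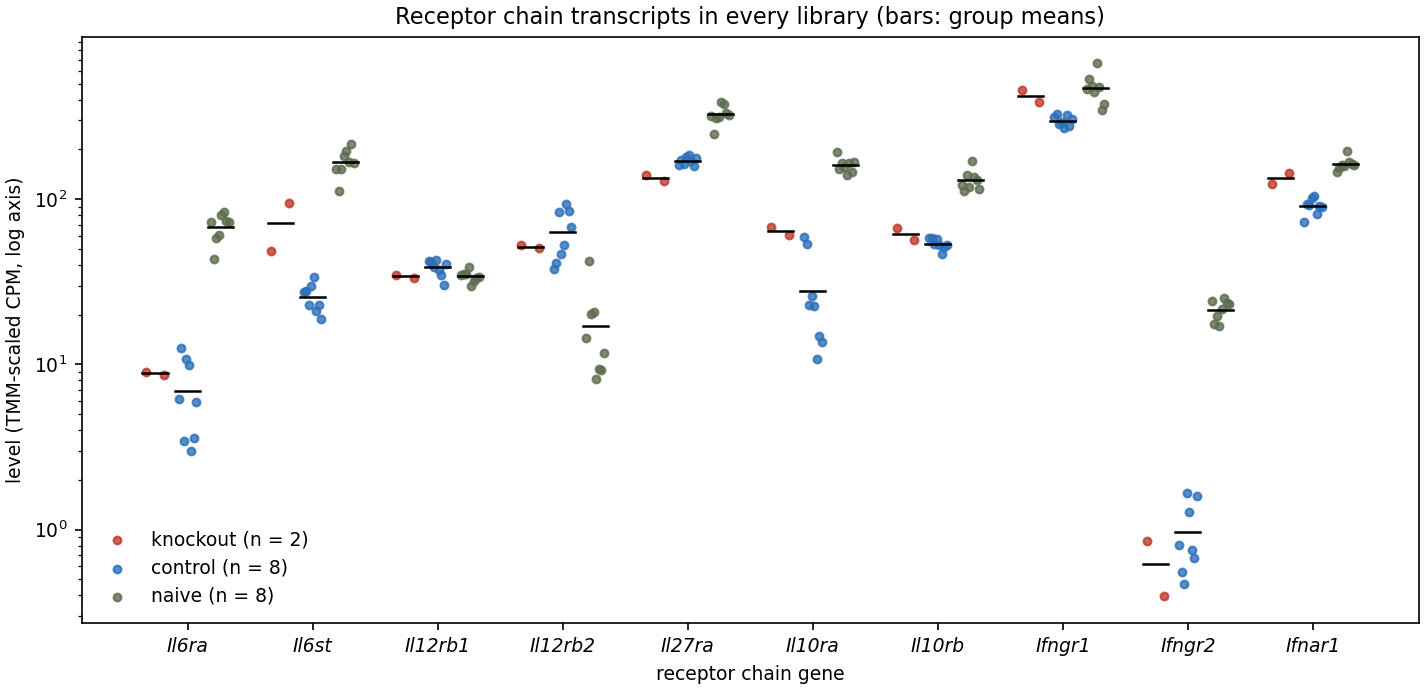
TMM-scaled CPM (log axis) of the 10 receptor chain genes in 2 knockout, 8 control and 8 naive libraries, with 1 point for each library and bars at group means. Ifngr2 stood at 0.395 and 0.847 CPM in knockout, 0.467 to 1.66 CPM in control and 17.1 to 25.2 CPM in naive libraries, while the Il12rb1 groups overlapped.

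**Figure D2:**
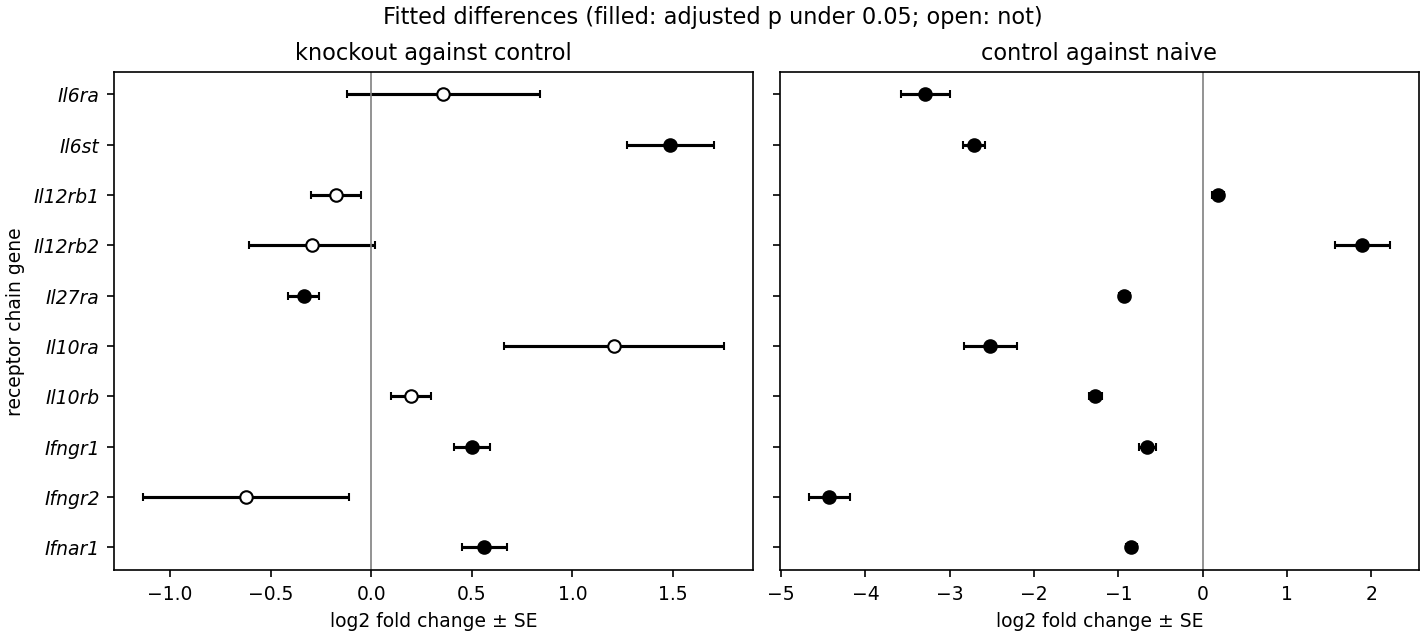
Fitted log2 fold changes with their SE for knockout against control (left) and control against naive (right), filled where the adjusted p was under 0.05. In the left panel Il6st, Ifngr1 and Ifnar1 lay above 0 and Il27ra below it as calls, and in the right panel Il12rb1 and Il12rb2 were the called members above 0.

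Both IL-6 receptor chains fell in stimulated cells, and Il6st passed the test as higher in the knockout than in the control libraries. Il6ra (ENSMUSG00000027947.11; GRCm38 chromosome 3, 89864059 to 89913196, minus strand) had 9.04 and 8.68 CPM in the knockout libraries. In controls its lowest, median and highest values were 2.98, 6.04 and 12.6 CPM, and in naive libraries 43.6, 72.7 and 83.1 CPM. Every stimulated library was below every naive one, whereas the knockout values lay within the control range. The log2 fold change was -3.29 ± 0.29 (SE) in control against naive (n = 8 each, adjusted p = 1.12e-08, edgeR), a level 9.78-fold lower. It was 0.36 ± 0.48 in knockout against control (adjusted p = 0.678, edgeR), which missed the threshold.

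Il6st (ENSMUSG00000021756.12; chromosome 13, 112464070 to 112510086, plus strand) had 48.7 and 94.4 CPM in the knockout libraries. In controls it had a lowest value of 18.8, a median of 25.2 and a highest of 33.6 CPM, and in naive libraries 111, 168 and 217 CPM. The 3 groups did not overlap, and the 2 knockout libraries differed more from each other than the controls did. Il6st fell in control against naive by 2.72 ± 0.13 (SE) on the log2 scale (adjusted p = 1.27e-11, edgeR). It rose in knockout against control (log2 fold change 1.49 ± 0.22, n = 2 and 8, adjusted p = 0.00138, edgeR), or 2.80-fold. With the second knockout library left out the log2 fold change was 0.95 (adjusted p = 0.0507, edgeR), and with the first left out it was 1.88.

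The IL-12 receptor chains were the members that stood higher in control than in naive libraries. Il12rb1 (ENSMUSG00000000791.9; chromosome 8, 70808449 to 70821424, plus strand) had 34.8 and 33.3 CPM in the knockout libraries. It had 30.4, 39.8 and 43.0 CPM (lowest, median, highest) in controls and 29.9, 34.1 and 38.8 CPM in naive libraries. All 3 groups overlapped. Its log2 fold change in control against naive, 0.18 ± 0.07 (SE), passed narrowly (adjusted p = 0.0363, edgeR) and the call was lost with naive library 5 left out (0.15, adjusted p = 0.0733, edgeR), with controls 3 to 8 alone (0.16, adjusted p = 0.0708, edgeR), with scaling by total counts (0.08, adjusted p = 0.312, edgeR) or with limma's voom (0.14, adjusted p = 0.0891). Between knockout and control libraries it was -0.18 ± 0.12 (adjusted p = 0.384, edgeR).

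Il12rb2 (ENSMUSG00000018341.12; chromosome 6, 67291318 to 67376188, minus strand), the chain that sets IL-12 responsiveness in T cells, had 52.6 and 50.4 CPM in the knockout libraries. It had 37.7, 60.0 and 93.6 CPM (lowest, median, highest) in controls and 8.19, 13.0 and 42.4 CPM in naive libraries. A single naive library, replicate 2, reached the control range, and the other 7 were at or below 20.6 CPM. Il12rb2 rose in control against naive (log2 fold change 1.89 ± 0.32, SE, adjusted p = 4.77e-05, edgeR), or 3.71-fold. The log2 fold change was 2.25 with naive library 2 left out, and with controls 1 and 2 alone it was 1.26 and missed the threshold (adjusted p = 0.0578, edgeR). Its log2 fold change in knockout against control was -0.29 ± 0.31 (adjusted p = 0.590, edgeR). The direction turned to 0.39 against controls 1 and 2 alone (adjusted p = 0.288, edgeR) and to 0.38 with a replicate block (adjusted p = 0.233, edgeR). Exons of Serbp1 on the other strand overlap 819 of the 2998 bases of the Il12rb2 transcript that held 95.5 to 99.8% of the gene's counts, and 1519 of the 2600 bases of the other annotated one. Reads there cannot be assigned by strand with an unstranded kit. Serbp1 had 710 to 898 CPM in controls and 413 to 517 CPM in naive libraries (log2 fold change 0.70 ± 0.06, adjusted p = 9.74e-09, edgeR), the same direction as Il12rb2, and its part in the Il12rb2 value was not tested.

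Il27ra (ENSMUSG00000005465.9; chromosome 8, 84030294 to 84042589, minus strand), the IL-27-binding chain, was the member that lay lower in the knockout than in the control libraries as a call. It had 141 and 129 CPM in the knockout libraries, against 159, 170 and 185 CPM (lowest, median, highest) in controls, and 249, 320 and 386 CPM in naive libraries. The groups formed 3 steps with no overlap. The log2 fold change was -0.34 ± 0.08 (SE) in knockout against control (adjusted p = 0.0131, edgeR) and -0.93 ± 0.07 in control against naive (adjusted p = 1.30e-09, edgeR). Without the second knockout library the knockout difference was -0.26 (adjusted p = 0.188, edgeR). Il27ra and Il6st, whose products pair in the IL-27 receptor, thus moved in opposite directions in knockout against control.

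Both IL-10 receptor chains fell in stimulated cells, and the controls differed among themselves on Il10ra. Il10ra (ENSMUSG00000032089.16; chromosome 9, 45253837 to 45269149, minus strand) had 67.8 and 61.1 CPM in the knockout libraries, 10.8, 22.7 and 59.0 CPM (lowest, median, highest) in controls and 139, 161 and 192 CPM in naive libraries. Among the controls, libraries 1 and 2 stood at 59.0 and 53.9 CPM, and libraries 3 to 8 at 10.8 to 26.1 CPM. The knockout libraries lay just above controls 1 and 2. Il10ra fell in control against naive by 2.52 ± 0.31 (SE) on the log2 scale (adjusted p = 1.09e-06, edgeR). Its log2 fold change of 1.21 ± 0.55 in knockout against control missed the threshold (adjusted p = 0.170, edgeR). Against controls 3 to 8 alone it was 1.82 (adjusted p = 0.00271, edgeR), and against controls 1 and 2 alone 0.20 (adjusted p = 0.542, edgeR).

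Il10rb (ENSMUSG00000022969.13; chromosome 16, 91406164 to 91425834, plus strand) had 66.6 and 56.4 CPM in the knockout libraries, 46.6, 53.5 and 58.4 CPM (lowest, median, highest) in controls, and 113, 126 and 170 CPM in naive libraries. The stimulated libraries lay apart from the naive ones, and the second knockout library lay within the controls. The log2 fold change was 0.20 ± 0.10 (SE) in knockout against control (adjusted p = 0.215, edgeR) and -1.28 ± 0.08 in control against naive (adjusted p = 1.10e-10, edgeR).

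Controls 1 and 2 did not overlap controls 3 to 8 for 3 of the 10 members, beside 9.92% of the 18651 genes tested. Controls 1 and 2 were above controls 3 to 8 for Il10ra and, narrowly, for Il10rb (58.1 and 58.4 CPM against 46.6 to 57.3 CPM). They were below them for Il12rb2 (37.7 and 41.4 CPM against 46.8 to 93.6 CPM). For the other 7 members the ranges of these controls overlapped. Eomes, a T-box factor of effector and memory CD8+ cells, divided the libraries in the same way, with 58.1 and 59.3 CPM in the knockout libraries, 54.6 and 63.3 CPM in controls 1 and 2, and 12.1 to 20.3 CPM in controls 3 to 8. The labels give no batch for these libraries. Against controls 1 and 2 alone, edgeR called 0 members and 5 genes. An unadjusted p under 0.05 was reached by 4 members (Il6st, Il12rb2, Ifngr1 and Ifnar1), beside 16.6% of 16945 genes. The 4 members called against all 8 controls kept their direction there, with log2 fold changes of 1.38 for Il6st, 0.40 for Ifngr1, 0.70 for Ifnar1 and -0.29 for Il27ra (adjusted p = 0.162, 0.255, 0.175 and 0.341, edgeR, n = 2 each).

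**Figure D3:**
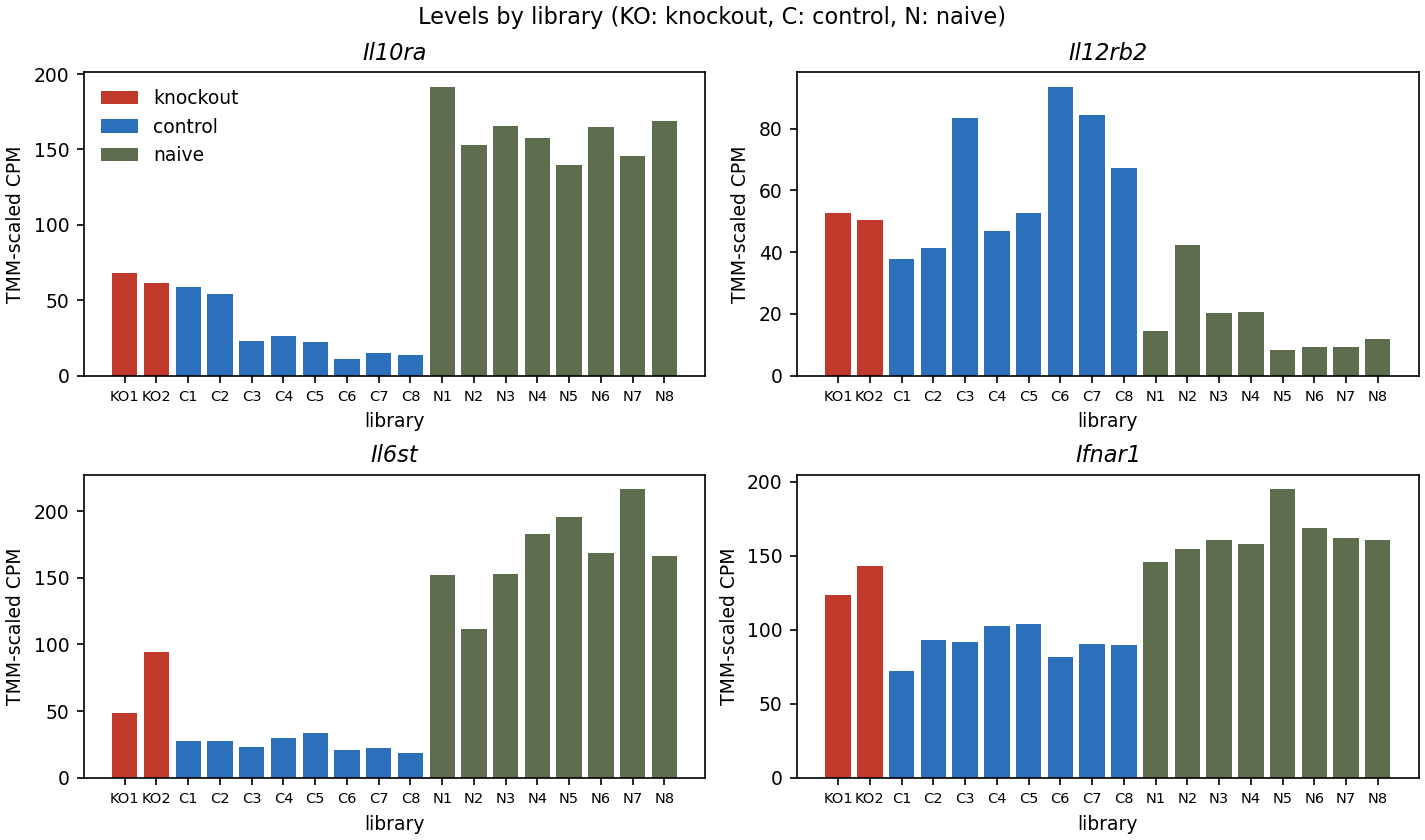
TMM-scaled CPM of Il10ra, Il12rb2, Il6st and Ifnar1 in each knockout (KO), control (C) and naive (N) library. Il10ra stood at 61.1 and 67.8 CPM in knockout libraries and at 53.9 and 59.0 CPM in controls 1 and 2, above the 10.8 to 26.1 CPM of controls 3 to 8, while Il6st and Ifnar1 in knockout libraries lay above every control.

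Both chains of the interferon gamma receptor fell in control against naive, by very different amounts. Ifngr1 (ENSMUSG00000020009.13; chromosome 10, 19591949 to 19610229, plus strand) had 457 and 387 CPM in the knockout libraries. It had 269, 299 and 330 CPM (lowest, median, highest) in controls and 348, 470 and 663 CPM in naive libraries. The knockout libraries were above every control and within the naive range. Ifngr1 rose in knockout against control (log2 fold change 0.50 ± 0.09, SE, adjusted p = 0.00372, edgeR), and fell in control against naive by 0.66 ± 0.10 (adjusted p = 1.29e-05, edgeR). In knockout against naive it was -0.13 ± 0.19 (adjusted p = 0.617, edgeR). Without the first knockout library the difference from controls was 0.36 (adjusted p = 0.0518, edgeR), and Ifngr1 was the member still called without the second.

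Ifngr2 (ENSMUSG00000022965.8; chromosome 16, 91547072 to 91565623, plus strand) had 0.847 and 0.395 CPM in the knockout libraries, 0.467, 0.777 and 1.66 CPM (lowest, median, highest) in controls, and 17.1, 22.3 and 25.2 CPM in naive libraries. In counts, these were 66 and 36 in knockout, 38 to 131 in control and 1285 to 2286 in naive libraries. Ifngr2 fell by 4.43 ± 0.24 (SE) on the log2 scale in control against naive (adjusted p = 4.62e-11, edgeR), or 21.5-fold, the largest change among the members. In knockout libraries relative to controls the log2 fold change was -0.62 ± 0.51 (adjusted p = 0.466, edgeR), with overlapping groups.

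Ifnar1 (ENSMUSG00000022967.13; chromosome 16, 91485238 to 91507441, plus strand) had 124 and 143 CPM in the knockout libraries, 72.5, 91.2 and 104 CPM (lowest, median, highest) in controls, and 145, 161 and 195 CPM in naive libraries. The knockout libraries stood between the other groups without touching either. Ifnar1 rose in knockout against control (log2 fold change 0.56 ± 0.11, SE, adjusted p = 0.00719, edgeR), and fell in control against naive by 0.85 ± 0.07 (adjusted p = 4.13e-09, edgeR). Without the second knockout library the rise was 0.46 (adjusted p = 0.131, edgeR). Its partner Ifnar2, no member, also rose, with 97.3 and 98.1 CPM in the knockout libraries and 40.3 to 63.6 CPM in controls (log2 fold change 0.84 ± 0.13, adjusted p = 0.00216, edgeR). Ifnar2, Il10rb, Ifnar1 and Ifngr2 lie in this order, all on the plus strand, in the same region of chromosome 16. In control against naive these neighbours had log2 fold changes of -1.31, -1.28, -0.85 and -4.43.

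Knockout and naive libraries were also compared. Of the 10 members 7 were called, against a background of 44.7% of 19776 genes, with 6 lower (background 23.6%) and 1 higher (background 21.1%). The lower ones were Ifngr2 (-5.03), Il6ra (-2.90), Il10ra (-1.28), Il27ra (-1.24), Il6st (-1.21) and Il10rb (-1.05), as log2 fold changes. Il12rb2 was the higher one, at 1.63 ± 0.48 (SE, adjusted p = 0.0172, edgeR), a call lost without the first knockout library (1.57, adjusted p = 0.111) and without the second (1.68, adjusted p = 0.0975). Ifngr1, Ifnar1 (-0.26 ± 0.10, adjusted p = 0.0531, edgeR) and Il12rb1 (0.03 ± 0.10, adjusted p = 0.852, edgeR) missed the threshold, although Ifnar1 passed it when naive library 1, 2, 4 or 5 was left out (-0.31 to -0.22, adjusted p = 0.0281 to 0.0486, edgeR). These values share the knockout libraries with knockout against control and the naive libraries with control against naive, so they are no independent evidence.

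Levels of different chains were set side by side per kilobase of exon (CPM per kb). The length counts every annotated exon base of a gene, so the order and the overlaps between chains depend on it. For Il10rb it was 3808 bases, whereas the transcript Il10rb-201, with 90.8 to 92.9% of the gene's counts in naive libraries, has 1850. An order by the length of the main transcript was not computed. In naive libraries the order ran from Ifngr1 (166 ± 34.2, SD, n = 8) through Il27ra (93.2 ± 12.0), Il10ra (45.9 ± 4.61), Il10rb (34.3 ± 4.91), Ifnar1 (27.5 ± 2.45) and Il6st (15.2 ± 2.86) to Il12rb1 (8.33 ± 0.640), Il6ra (7.87 ± 1.51), Ifngr2 (5.70 ± 0.810) and Il12rb2 (4.48 ± 2.99). Neighbours whose libraries did not overlap in that order were Ifngr1 and Il27ra, Il27ra and Il10ra, Il6st and the chain on either side of it. Every other pair of neighbours overlapped. In controls Ifngr1 (105 ± 7.78 CPM per kb) and Il27ra (48.9 ± 2.78) again headed the order. They were followed by Il12rb2 (16.7 ± 5.74), Ifnar1 (15.3 ± 1.73) and Il10rb (14.2 ± 1.06), which overlapped one another. Then came Il12rb1 (9.40 ± 1.04) and Il10ra (7.99 ± 5.25). Il10ra ran from 3.08 to 16.9 CPM per kb and overlapped Il12rb2, Ifnar1, Il10rb and Il12rb1. Below them were Il6st (2.30 ± 0.449), Il6ra (0.800 ± 0.428) and Ifngr2 (0.258 ± 0.125). The highest Il6st value, 3.03 CPM per kb, was just under the lowest of Il10ra. In the knockout libraries the means were 148 for Ifngr1, 38.6 for Il27ra, 22.5 for Ifnar1, 18.4 for Il10ra, 16.2 for Il10rb, 13.6 for Il12rb2, 8.29 for Il12rb1, 6.45 for Il6st, 1.03 for Il6ra and 0.165 for Ifngr2 CPM per kb.

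Because the chains act in pairs, their balance was described as the ratio of levels per kilobase of exon, chosen after the values were seen and given without a test. Ifngr1 over Ifngr2 was 714 and 1295 in the knockout libraries, with a median of 529 (234 to 804) in controls and 29.1 (19.5 to 40.8) in naive libraries. The stimulated libraries thus lay apart from the naive ones. Il27ra over Il6st, the IL-27 receptor pair, was 4.34 and 9.17 in the knockout libraries, with a median of 20.8 (17.5 to 29.9) in controls and 6.36 (4.85 to 7.11) in naive libraries. Here the controls lay apart from both other groups. Il6st over Il6ra was 4.20 and 8.46 in the knockout libraries, with a median of 3.06 (1.73 to 5.51) in controls and 1.95 (1.58 to 2.34) in naive libraries. Il12rb2 over Il12rb1 was 1.63 and 1.64 in the knockout libraries, with a median of 1.66 (0.968 to 3.02) in controls and 0.413 (0.297 to 1.3) in naive libraries. Il10ra over Il10rb was 1.11 and 1.18 in the knockout libraries, with a median of 0.463 (0.252 to 1.10) in controls and 1.38 (0.893 to 1.71) in naive libraries. Ifnar1 over Ifnar2 stayed within 0.636 to 1.13 in all 18 libraries, with medians of 0.766 in knockout, 0.917 in control and 0.663 in naive libraries. Because the numerator and denominator come from the same library, scaling between libraries does not enter these ratios. The exon lengths do enter them, as the same factor in every library. Whether a ratio lies above or below 1 therefore depends on these lengths.

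The other genes of the pathway were read from lists of known components. Over all genes tested the shares called were 32.5% higher and 39% lower in control against naive, and 7.62% higher and 7.24% lower in knockout against control, and each list's counts stand beside these. Ligands of these receptors summed to 33.1 to 38.8 CPM in the knockout libraries, 26.6 to 45.2 CPM in controls and 62.4 to 80.4 CPM in naive libraries. Of 14 listed, 7 passed the filter in control against naive, with 2 higher and 3 lower, and 9 in knockout against control, with 2 higher and 1 lower. Il10, whose product binds the Il10ra chain, had 1.41 to 1.87 CPM in the knockout libraries and 0 to 0.343 CPM in controls (log2 fold change 3.81 ± 1.05, adjusted p = 0.0301, edgeR), a fitted value that rests on few counts. Ifng had 12.3 to 18.4 CPM in the knockout libraries and 5.89 to 13.0 CPM in controls (0.82 ± 0.25, adjusted p = 0.0461, edgeR). Ebi3, a subunit of IL-27, had 0.472 to 1.25 CPM in the knockout libraries and 1.26 to 7.08 CPM in controls (-2.26 ± 0.67, adjusted p = 0.0415, edgeR). Clcf1, a ligand that signals through gp130, had 3.46 to 6.38 CPM in controls and 33.8 to 51.4 CPM in naive libraries (-3.08 ± 0.13, adjusted p = 1.89e-12, edgeR).

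Of 11 other chains of these receptor families, 6 were tested in both comparisons. In control against naive 2 were higher and 2 lower. Il23r, which joins Il12rb1 in the IL-23 receptor, had 0.644 to 8.98 CPM in controls and 0 to 0.235 CPM in naive libraries (log2 fold change 5.73 ± 0.65, adjusted p = 3.16e-07, edgeR). Il31ra rose as well, with 2.94 to 8.83 CPM in controls and 0.410 to 3.81 CPM in naive libraries. Ifnar2 was the 1 call in knockout against control.

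Among the 11 Janus kinases, STAT factors and partners listed, 8 were lower and 1 was higher in control than in naive libraries. Jak1, which serves nearly all of these receptors, had 538 to 729 CPM in controls and 1309 to 1818 CPM in naive libraries (-1.23 ± 0.07, adjusted p = 9.96e-11, edgeR). Stat2, a factor of type I interferon signalling, had 20.4 to 50.2 CPM in controls and 79.2 to 149 CPM in naive libraries (-1.71 ± 0.15, adjusted p = 1.29e-08, edgeR). Relative to controls, 1 of the 11 was called in the knockout libraries. This was Stat3, with 266 to 333 CPM in the knockout libraries and 215 to 266 CPM in controls (0.29 ± 0.09, adjusted p = 0.0476, edgeR).

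Of 16 feedback genes, which limit JAK-STAT signalling, 8 were lower and 3 higher in control than in naive libraries, together close to the 71.5% called over all genes. Socs3, whose product binds gp130 and blocks its signal, had 8.58 to 16.2 CPM in controls and 54.8 to 113 CPM in naive libraries (-2.65 ± 0.16, adjusted p = 1.27e-10, edgeR). The 1 call in knockout against control was Ptpn2, a phosphatase acting on JAK and STAT proteins (-0.41 ± 0.08, adjusted p = 0.00632, edgeR). Of 4 genes of the machinery that sheds IL-6 receptor chains from the cell surface, 3 were higher in control than in naive libraries. Rhbdf2, a partner of the protease ADAM17, had 34.7 to 58.7 CPM in controls and 18.4 to 23.2 CPM in naive libraries (1.08 ± 0.09, adjusted p = 6.95e-09, edgeR).

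Genes known to respond to these receptors were read by transcription factor. All 15 listed interferon gamma targets fell in control against naive (median log2 fold change -1.85, beside -0.08 over all genes), as did all 12 type I interferon targets (median -2.34). Irf1, a transcription factor induced by interferon gamma, had 139 to 188 CPM in controls and 410 to 714 CPM in naive libraries, and Ifit3, an antiviral gene, 2.31 to 24.2 CPM in controls and 85.8 to 378 CPM in naive libraries. Of the 7 STAT4 targets 4 rose and 1 fell. Tbx21, the T-box factor of type 1 responses, had 295 to 386 CPM in controls and 108 to 218 CPM in naive libraries (1.17 ± 0.11, adjusted p = 1.83e-08, edgeR). Of the 10 STAT3 targets 4 rose and 5 fell. Batf, an AP-1 factor, rose to 189 to 261 CPM in controls against 81.6 to 115 CPM in naive libraries, and Bcl2, a survival gene, fell to 22.9 to 35.7 CPM in controls against 97.7 to 239 CPM in naive libraries.

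In knockout against control the target lists differed in their calls, beside 7.62% higher and 7.24% lower over all genes tested. The 12 type I interferon targets had a median log2 fold change of -0.51, beside -0.01 over all genes, and 0 of the 12 were called. The smallest adjusted p values among them belonged to genes of opposite direction, Irf7 (-1.06 ± 0.37, adjusted p = 0.0804, edgeR) and Mx1 (1.03 ± 0.37, adjusted p = 0.0845, edgeR). Of the 15 interferon gamma targets 1 was higher (Nlrc5, 0.56 ± 0.17, adjusted p = 0.0475, edgeR) and 1 lower (Psmb8, -0.28 ± 0.08, adjusted p = 0.0342, edgeR). Of the 7 STAT4 targets, Ifng was higher and 3 were lower, among them Tbx21 with 239 to 244 CPM in the knockout libraries and 295 to 386 CPM in controls (-0.50 ± 0.10, adjusted p = 0.00644, edgeR). Of the 10 STAT3 targets 2 were higher, Prdm1 (1.07 ± 0.26, adjusted p = 0.0171, edgeR) and Bcl2 (0.93 ± 0.16, adjusted p = 0.00287, edgeR), and 1 was lower, Myc (-0.45 ± 0.12, adjusted p = 0.0239, edgeR).

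**Figure D4:**
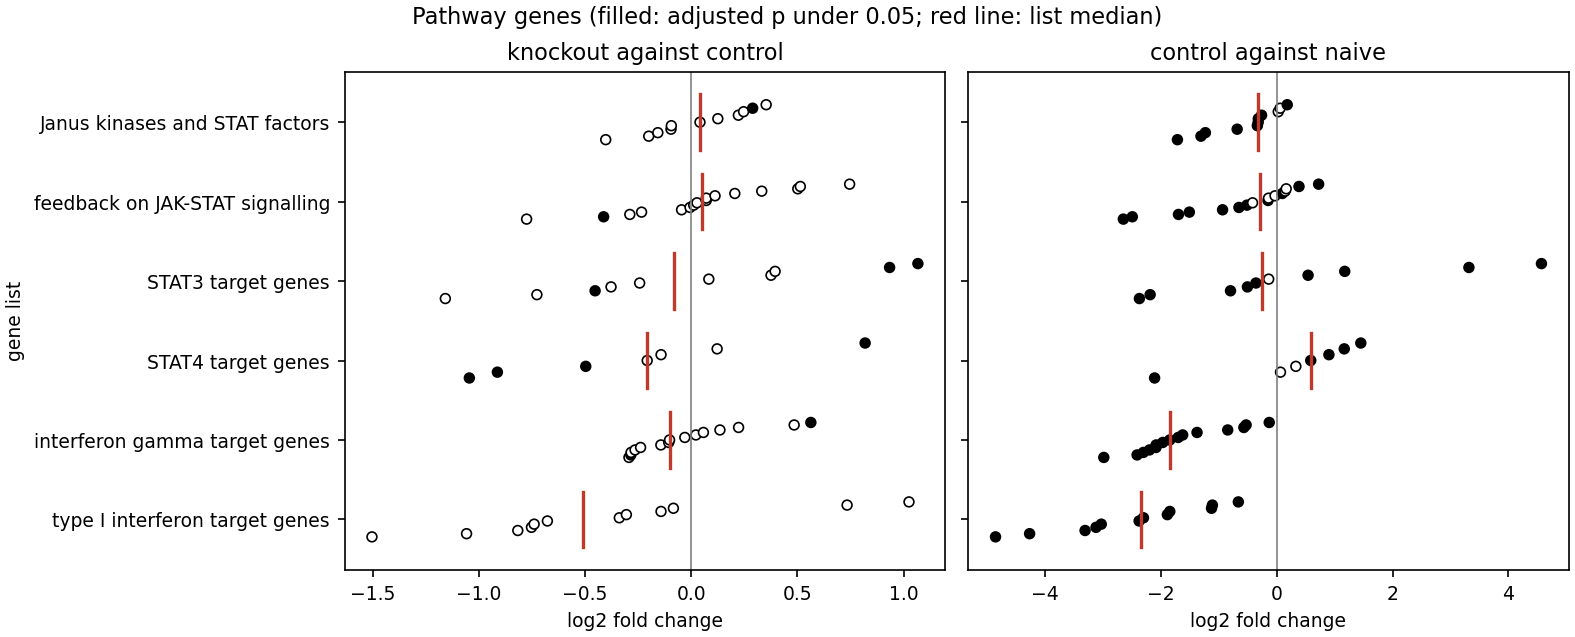
Log2 fold changes of pathway and target genes by list, for knockout against control (left) and control against naive (right), with 1 point for each gene, filled where the adjusted p was under 0.05, and a red line at the list median. Every tested interferon target lies below 0 in control against naive, with medians of -1.85 and -2.34, whereas most points in knockout against control are open.

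The receptors of the common gamma chain family were the nearest set for comparison. Of 8 listed, 2 were higher and 5 lower in control than in naive libraries (median log2 fold change -0.76, beside -1.10 for the 10 members). In knockout against control 1 was higher, Il21r (203 to 206 CPM in the knockout libraries, 107 to 140 CPM in controls; 0.68 ± 0.09, adjusted p = 0.000868, edgeR), and 1 lower, Il7r (31.3 to 38.1 CPM against 46.1 to 99.2 CPM; -1.08 ± 0.22, adjusted p = 0.00711, edgeR).

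Over all genes tested, 7.62% were called higher and 7.24% lower in knockout against control, and 32.5% higher and 39% lower in control against naive. Of the 10 T cell identity genes 1 was higher and 3 were lower in knockout against control. Markers of other cells moved with the groups. The 10 myeloid and dendritic cell markers summed to 80.3 to 93.8 CPM in the knockout libraries, 32.0 to 59.5 CPM in controls and 88.7 to 168 CPM in naive libraries. Most of the knockout sum was Itgax, at 34.9 to 47.4 CPM, and Lyz2, at 22.2 to 47.2 CPM. In knockout against control 8 of these markers were tested and 0 called. Of the 8 tested in control against naive, 8 were lower, with Clec9a, a dendritic cell gene, at 0 to 0.203 CPM in controls and 5.38 to 18 CPM in naive libraries. The 10 B cell markers summed to 31.5 to 33.5 CPM in the knockout libraries, 14.4 to 28.6 CPM in controls and 71.0 to 144 CPM in naive libraries. Siglech, a gene of plasmacytoid dendritic cells, was at 0 in every stimulated library, and the B cell factor Ebf1 at 0 in the knockout libraries. Of the 8 erythroid and platelet markers 5 were higher in knockout than in control libraries, with sums of 13.9 and 133 CPM in the knockout libraries and 0.537 to 18.4 CPM in controls. The pair of knockout libraries thus differed widely in this sum. The 6 NK cell markers, among them Eomes, summed to 60.8 to 62.0 CPM in the knockout libraries, 16.1 to 65.6 CPM in controls and 87.7 to 151 CPM in naive libraries. Of the 6, 5 were lower in control than in naive libraries. In knockout against control 5 were tested and 0 called, with a median log2 fold change of -0.57. Eomes, named above as a factor of effector and memory CD8+ cells, made up most of the sum. Its means were 58.7 CPM in knockout, 26.2 CPM in control and 94.5 CPM in naive libraries. The 4 gamma delta T cell markers summed to 107 to 119 CPM in the knockout libraries, 84.6 to 151 CPM in controls and 16.9 to 31.0 CPM in naive libraries. Most of that sum was Trdc, the delta chain constant gene. Trdc had 79.6 to 146 CPM in controls and 11.8 to 22.8 CPM in naive libraries (log2 fold change 2.77 ± 0.14, adjusted p = 1.93e-11, edgeR). Of the 3 markers of this list tested in control against naive, 2 were higher and 1 was lower. Tcrg-C1, a gamma chain constant gene, went the other way from Trdc. Its means were 0.748 CPM in knockout, 1.31 CPM in control and 6.84 CPM in naive libraries. The 6 stroma markers summed to 48.7 to 53.0 CPM in the knockout libraries, 29.1 to 49.4 CPM in controls and 79.4 to 125 CPM in naive libraries. Pecam1 made up most of this, with 46.4 to 50.4 CPM in knockout, 26.1 to 45.8 CPM in control and 76.6 to 123 CPM in naive libraries. Of the 4 stroma markers tested in knockout against control 0 were called. The neutrophil sum was at most 3.56 CPM in knockout, 2.38 CPM in control and 6.47 CPM in naive libraries, and the CD4 T cell sum 3.77 to 4.71 CPM in knockout, 4.42 to 20.8 CPM in control and 4.13 to 6.07 CPM in naive libraries. Of the 4 CD4 T cell markers 2 were higher in control than in naive libraries, Zbtb7b and Cd40lg, while Foxp3 was lower. Cd4 itself was not called, with 0 to 0.603 CPM in controls and 0.0881 to 1.48 CPM in naive libraries. The part of any of these other cell types in the receptor differences was not tested.

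Transcript usage was examined for the 9 members with more than 1 transcript kept, since the knocked-out gene regulates splicing. In knockout against control 0 of 9 were called by edgeR's Simes test, 0 were under an unadjusted p of 0.05, and a likelihood-ratio fit also called 0. The background was 1.7% of 9653 genes (3.19% in the likelihood-ratio fit), and this test recovered few changes on simulated data of that design, so the missing calls say little. In control against naive 1 of 9 was called, Ifnar1 (adjusted p = 0.0451), against a background of 8.75% of 8581 genes. The likelihood-ratio fit called 6 of 9, against a background of 44.9%. The transcript called was Ifnar1-203, annotated for nonsense-mediated decay (log2 fold change relative to the gene -1.17, adjusted p = 0.0391, edgeR). Ifnar1-203 held 4.29 to 7.01% of the gene's counts in knockout, 2.48 to 5.68% in control and 2.39 to 38.0% in naive libraries, so the groups overlapped and the naive libraries spread widely. The retained-intron transcript Ifnar1-205 was not called (-0.80, adjusted p = 0.172, edgeR), with shares of 5.38 to 7.59% in knockout, 4.64 to 8.21% in control and 10.7 to 16.2% in naive libraries. The call was lost when any control library, or naive library 1, 6 or 7, was left out. Shares of Ifngr1-203, annotated for nonsense-mediated decay, ran from 6.18 to 43.8% in knockout, 7.69 to 48.6% in control and 20.2 to 53.4% in naive libraries, a spread within groups that limits any comparison. For Il6st the long coding transcript Il6st-203 held 65.6 to 99.1% in knockout, 59.3 to 98.2% in control and 73.8 to 95.2% in naive libraries.

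Across all 18 libraries, the genes whose log2 CPM followed each member most closely among 12184 candidates were read off as a description, since the points share libraries, depth and the difference between naive and stimulated cells. Il6st ran with Kdm7a (Pearson r = 0.987), Tnrc6b and Zeb1 (0.985 each). Il6ra ran with Arl4c (0.987), Sesn3 (0.984) and Neurl3 (0.983). Il10ra, with its split among the controls, ran with Wdr95 (0.981), Prf1 (0.978) and Cd72 (0.977), and Il10rb with Hcst (0.988), Ccl5 (0.988) and Nfe2l2 (0.987). Il12rb2 ran with Prr5 (0.967), Acsl6 (0.967) and Gldc (0.966). Il27ra ran with Bcl7b (0.991), Pim2 (0.990) and Mppe1 (0.988). Ifngr2 ran with Rnaset2b (0.985), Vipr1 (0.984) and Ypel3 (0.983), and Ifnar1 with Ssh2 (0.980), Tom1l2 (0.978) and Klhl24 (0.978). The closest genes were farther off for Ifngr1 (Mettl23 0.908, Gramd3 0.886, Ptpn22 0.877) and for Il12rb1 (Igfbp6 0.820, Mrpl48 0.808, Glrx 0.798).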

How the data were processed

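Per the labels, the 18 libraries of CD8+ T cells were made with the miRNeasy Micro and SMARTer Ultra-low polyA V4 kits, the second of which does not mark strand. The authors deposited estimated counts, as whole numbers, for genes and for transcripts. The submitters' processing notes name DESeq2 1.30.1, R 4.0.5, StringTie 2.1.0, SAMtools 1.9 and STAR 2.7.1a, with the builds mm39 and mm10 and no role for either. All 55536 Ensembl identifiers are in GENCODE M21, so coordinates are in GRCm38. Rows with numeric identifiers (26248 of 81881, with 0.0513 to 0.132% of the counts) name no gene and were left out. The 97 spike-in rows held 0 counts. Of the columns, 0 belonged to no sample.

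The values were used as whole numbers. Genes were filtered with filterByExpr (minimum count 10), scaled by TMM within each comparison and tested with edgeR 4.0.16 in R 4.3.3 (robust quasi-likelihood fit, prior count 2), with Benjamini-Hochberg adjustment over all genes tested and calls under 0.05. The SE of a log2 fold change was taken from the fold change and its F statistic, and SD is over libraries. Displayed CPM use factors over all 18 libraries, whereas fold changes come from each fit. Usage of transcripts was tested by diffSpliceDGE, with a Simes p for each gene. Both steps were tested on simulated data. Alternatives were DESeq2 1.42.0, RLE factors, total counts, no filter, all groups in one fit, limma 3.58.1 voom with quality weights, a replicate block, removal of a trend on length and GC content, subsets of the controls, and leaving out each library.

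The members and the gene lists were chosen with earlier results of these data known. The text names all members, Tra2b and the 3 genes most correlated with each member. Of each list it names up to 4 genes by smallest p, with some of those called in knockout against control. The latter genes, and the ratios of paired chains, were added after values were seen. Mx1, Siglech, Ebf1, Itgax and Lyz2 were also named for their values, and Serbp1 for its overlap with Il12rb2. Replicate numbers were not used as pairs. A gene of a pathway list is not reported here.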

Additional observations from a re-analysis of the deposited data

Results flagged for a closer look

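Among the 10 members, 20 groups of 8 libraries were examined for a single library far from the rest, and 2 stood out, where chance gives about 1 in 20. Il12rb2 had 42.4 CPM in naive library 2, and the nearest other naive library had 20.6 CPM. Ifnar1 had 195 CPM in naive library 5, and the nearest other naive library had 169 CPM. In both the gap was a large part of the range of the naive group by Dixon's criterion.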

How the results depend on the processing

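The values tallied here are those of the members over the alternatives, and counts of genes called are not among them. In control against naive, 265 of 270 such values kept their direction and side of the threshold. Over the libraries left out 9 to 10 members were called (11976 to 12243 genes). In knockout against control 187 of 210 such values did so. The 4 member calls held with DESeq2, RLE factors, total counts, no filter, one fit, voom and trend removal. The controls 1 and 2 alone gave 0 members and 5 genes, and leaving out 1 library gave 1 to 4 members and 651 to 2858 genes (651 without knockout library 2, a fit that assumes the single knockout library to vary like the controls). In knockout against naive 170 of 190 such values did so, with 6 to 8 members called over the libraries left out. The cause of these shifts was not tested.

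Replicate numbers gave no evidence of pairs in control and naive libraries. Residual correlations over 11269 genes were -0.13 to 0.23 for libraries of the same number in these groups (1 of 8 highest with its own). They were 0.12 and 0.17 in knockout and control (1 of 2 highest with its own). In knockout and naive they were -0.04 and 0.06 (0 of 2). With 2 knockout libraries the residuals from their mean mirror each other, so the check cannot decide on pairs there. With a replicate block, knockout against control gave 0 members and 0 genes, with or without the trend on length and GC, and knockout against naive gave 3322 genes, or 3988 with the trend also removed. The knockout fits with a block have few degrees of freedom left for the spread.

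Some log2 fold changes turned direction. In knockout against control Il6ra was -0.00396 with the block, -0.17 with block and trend and -0.0701 against controls 1 and 2. Il12rb2 was 0.38, 0.38 and 0.39 in these. In knockout against naive Il12rb1 was -0.0865 with total counts, -0.0063 with one fit and -0.0132 with the block, and -0.0376 to 0.0782 over the libraries left out. Ifngr1 was 0.00153 without knockout library 2 and -0.29 to 0.00153 over the libraries left out. Transcript usage in control against naive gave 6 members with a likelihood-ratio fit (which called 44.9% of 8581 genes), 0 with transcripts of at least 1 CPM, 0 with the block and 0 to 1 over the libraries left out. The share of higher calls was 45.4% in control against naive (39.5% with total counts), 51.3% in knockout against control (62.6% with voom) and 47.3% in knockout against naive (35.4% with the block). Depth limits Ifngr2, with 36 to 131 counts in stimulated libraries.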
